A study of Mus musculus with 2 samples.

Results

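The mitochondrial ribosome, or mitoribosome, is the ribosome that reads the few protein-coding transcripts of the mitochondrial genome, all of which encode subunits of the respiratory chain and the ATP synthase. Its rRNAs come from the mitochondrial genome, whereas its proteins are encoded in the nucleus by genes named Mrpl (large subunit) and Mrps (small subunit), made in the cytosol and imported. Some of these proteins have a bacterial counterpart and others are specific to mitochondria. In white fat, mitochondria take part in fatty acid handling and in the supply of precursors for lipid synthesis.

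The genes were chosen by name, as probe sets whose single annotated symbol starts with Mrpl or Mrps followed by a number. This gave 76 genes with 156 probe sets, out of 18193 genes and 45037 probe sets in the deposited table. The rule uses the symbol alone, though the family was picked with earlier results of these data known. Epididymal white adipose tissue, a visceral fat pad, came from male C57BL/6 mice. The high-fat diet sample came from a mouse that received this diet for 7 weeks from 9 weeks of age, and the normal chow sample from a mouse fed normal chow, with no age or duration stated for it beyond regular food up to 9 weeks. Each diet had 1 array, so no test of the diet was possible, the spread between animals is unknown, and "higher" and "lower" describe these 2 samples.

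Values are the deposited linear intensities of an Affymetrix array, whose probe sets each summarise several short probes. The 40th percentile of each array, 27.9 on the high-fat diet array and 28.6 on the chow array, was taken as the lowest usable signal and is called the floor. Probe sets at or over the floor on either array counted as measured, and each gene was represented by its measured probe set with the highest mean log2 intensity. All differences below are log2 values of the high-fat diet array minus those of the chow array. As a yardstick of probe error, the differences of probe sets of one gene had a pooled SD of 0.32 around their mean over 5196 genes, and also of 0.32 over 35 of the mitochondrial ribosomal protein genes. Over all genes it was 0.38 at a mean intensity under 100, 0.30 at 100 to 400 and 0.24 at 400 or more. This yardstick holds no difference between animals. Adipocyte markers were measured in 9 of 10 cases, with a summed intensity of 47041.7 on the high-fat diet and 44240.5 on chow. Of these markers 3 were lower and 6 higher, with Slc2a4 at -0.50, Pparg at -0.49 and Lep at 0.63. In bulk tissue, fewer cells of a type and less RNA per cell cannot be told apart.

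Each of the 76 genes had signal over the floor on both arrays, and as a group they differed little between the diets. The median difference was -0.08, beside -0.02 over all 14066 measured genes, and 25 of the 76 genes differed by less than 0.1. On the high-fat diet 47 genes were lower and 29 higher. Lower genes thus made up 61.8% of the family, against a background of 52.9% over all measured genes and 54.5% over genes in the same range of intensity, where higher genes made up 46.8% and 45.3%. The median stayed below 0 under all 4 other scalings that were tried, at -0.04 to -0.21, and was -0.01 with the mean of all probe sets of a gene. The 8 measured reference genes were Actb, B2m, Gusb, Hprt, Pgk1, Tbp, Tfrc and Ywhaz. On the high-fat diet 7 of them were higher and 1 lower, from -0.06 for Ywhaz to 0.49 for Gusb and 0.55 for Hprt. Their median was 0.13 and their SD 0.22. Centring on these genes, which shifts all differences by -0.13, gave 62 lower and 14 higher genes of the family. This was 81.6% lower against 68.2% of all measured genes. With the mean of all probe sets 39 genes were lower and 37 higher, 51.3% lower against 52.8% of all genes, and with plain probe sets only 53.2% of 62 genes were lower against 53% of all, so the lean to lower values was not seen under these choices. The summed intensity over the family was 22866.6 on the high-fat diet and 22762.6 on chow, a log2 ratio of 0.01.

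The differences within the family were narrow. Their SD was 0.24, against 0.40 over all measured genes and 0.36 over the 9305 genes that were above the floor on both arrays and within the family's range of mean intensity. Some related groups were as narrow. The SD was 0.25 over 47 genes with cytosolic ribosomal protein symbols, 0.23 over 84 with respiratory chain symbols and 0.16 over 21 mitochondrial import genes. Of these groups 93.6%, 86.9% and 95.2% lay within 25%. The symbol patterns matched only the start of a symbol, so kinase genes with Rps symbols and assembly factors with Sdh symbols could be included. Wider were assembly factors and rRNA enzymes (0.38), mitochondrial transcription, RNA handling and regulators (0.36), and aminoacyl-tRNA synthetases (0.32). Their shares within 25% were 65.4%, 72.7% and 70.6%. These lists were not matched for intensity. Many assembly factors and synthetases read under 100 on both arrays, where probe error is larger, whereas import genes were mostly brighter. How far this widens or narrows the SDs was not tested. No gene of the family reached 2-fold in either direction, where the background was 1.17% higher and 1.35% lower, 2.52% in all. At 1.5-fold or more 2 genes were higher (background 5.82%) and 1 was lower (background 6.4%). With a smaller limit, where the brighter array exceeded the other by 25% or more, 5 were higher, against a background of 15.8%, and 8 were lower, against 18.5%. The remaining 63 genes, 82.9% of the family, stayed within 25%, as did 65.7% of all measured genes and 70.4% of genes in the same range of intensity. Among genes in that range, 12.7% were higher and 16.8% lower by 25% or more (29.6% either way, and 34.3% of all measured genes), 3.95% higher and 4.75% lower at 1.5-fold (8.7% either way, and 12.2% of all), and 0.935% higher and 0.828% lower at 2-fold (1.76% either way). The shares of the family past each limit were thus below both backgrounds. At 1.5-fold and at 2-fold the counts are too small for a family of 76 genes to tell its shares apart from the backgrounds. Genes in the same range of intensity were matched to the family by that range alone, and not by how intensities are spread within it. Across the family, log2 intensities on both arrays correlated with Pearson's r = 0.97 over 76 genes. These points share the same arrays and are not independent replicates.

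**Figure D1:**
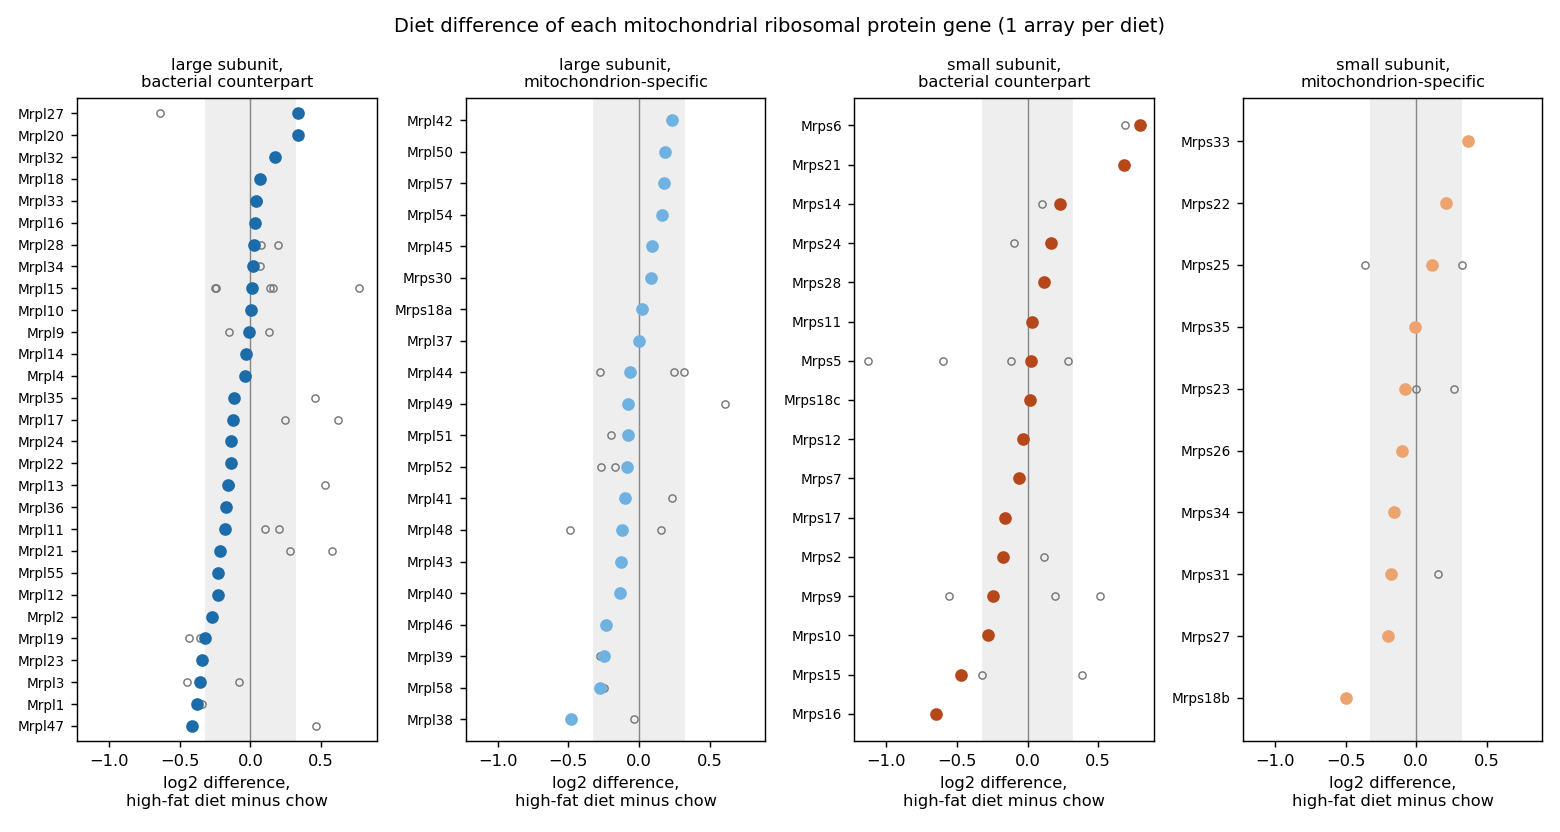
Log2 difference, high-fat diet minus chow, of each of 75 mitochondrial ribosomal protein genes in 4 role groups (Mrps36, outside them, is left out). Filled points are the probe set that represents the gene, and open points its other measured probe sets. The grey band is the pooled SD of probe error, 0.32 to each side of 0, drawn alike for dim and bright genes although this error is larger in dim ones. With Mrps36 counted, 62 of the 76 genes lie in the band (81.6%, against 69.8% of genes in the same range of intensity), 5 to its right (Mrps6, Mrps21, Mrps33, Mrpl27 and Mrpl20) and 9 to its left, from Mrps16 at -0.65 to Mrpl19 at -0.32.

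The largest difference in the family was that of Mrps6, a small-subunit protein with a bacterial counterpart. Its intensity was 1148.9 on the high-fat diet and 660.8 on chow, which is 1.74-fold higher on the high-fat diet. Its other probe set read 569.8 on the high-fat diet and 353.1 on chow, a difference of 0.69, close to the 0.80 of the brighter probe set. In the RefSeq gene table Mrps6 overlaps Slc5a3, which encodes a sodium-dependent inositol transporter. Slc5a3 differed by 0.27 in its brightest probe set, at 660.4 on the high-fat diet and 547.9 on chow, and by 0.37 and -0.13 in its other probe sets. How far Slc5a3 transcripts contribute to the Mrps6 signal was not tested. Mrps21, also a small-subunit protein with a bacterial counterpart, had 745.3 on the high-fat diet and 465.4 on chow, 1.60-fold higher. Its other probe set was below the floor on both arrays. These were the only genes of the family past 1.5-fold on the higher side, and both lay more than 0.32 from 0 under all 11 alternative settings.

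On the lower side, Mrps16 had the largest difference. It is a small-subunit protein with a bacterial counterpart, and variants of its human gene cause a combined respiratory chain deficiency. Mrps16 had an intensity of 261.6 on the high-fat diet and 410.8 on chow, 1.57-fold lower, in its only probe set. Mrps18b, a relative of a bacterial protein that holds a position of its own in the mitoribosome, had 149.3 on the high-fat diet and 210.6 on chow, a difference of -0.50 in its only probe set. Across the 10 alternatives that kept these genes (neither has a plain probe set) Mrps16 ranged from -0.78 to -0.62 and Mrps18b from -0.62 to -0.46.

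The start regions of these 4 genes are printed because they are the highest and lowest of the family by difference, and because nuclear genes of the mitoribosome are often described with sites for NRF1 and for ETS family factors such as GABPA close to the start. Each stretch runs from 250 bases before to 30 bases after the annotated start, from RefSeq on GRCm38.p6. Capitals mark the letters GCGCATGC (NRF1), CCGGAAG (ETS family) or AAGATGGCG (YY1), searched on both strands. These searched words do not overlap each other in the stretches shown. For Mrps16, which has more than 1 annotated start, the start with a match is shown.
Mrps6, chr16:92058086-92058365, plus strand: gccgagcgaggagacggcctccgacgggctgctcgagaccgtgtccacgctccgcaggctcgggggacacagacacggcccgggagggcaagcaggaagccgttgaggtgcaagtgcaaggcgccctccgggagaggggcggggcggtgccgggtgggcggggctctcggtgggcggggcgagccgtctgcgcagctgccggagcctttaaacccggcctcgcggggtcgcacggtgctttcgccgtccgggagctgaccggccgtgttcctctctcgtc
Mrps21, chr3:95871485-95871764, minus strand: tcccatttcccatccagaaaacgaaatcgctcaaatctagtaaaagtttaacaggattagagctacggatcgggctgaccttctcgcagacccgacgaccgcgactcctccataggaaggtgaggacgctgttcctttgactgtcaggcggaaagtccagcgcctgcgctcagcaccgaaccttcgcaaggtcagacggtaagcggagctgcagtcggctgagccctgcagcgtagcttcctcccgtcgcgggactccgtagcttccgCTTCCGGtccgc
Mrps16, chr14:20393461-20393740, minus strand: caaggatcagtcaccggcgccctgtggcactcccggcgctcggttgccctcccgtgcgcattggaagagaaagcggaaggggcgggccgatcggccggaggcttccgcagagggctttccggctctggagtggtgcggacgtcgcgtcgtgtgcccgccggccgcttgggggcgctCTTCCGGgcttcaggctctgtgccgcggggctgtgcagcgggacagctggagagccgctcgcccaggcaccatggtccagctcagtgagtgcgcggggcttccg
Mrps18b, chr17:35916411-35916690, minus strand: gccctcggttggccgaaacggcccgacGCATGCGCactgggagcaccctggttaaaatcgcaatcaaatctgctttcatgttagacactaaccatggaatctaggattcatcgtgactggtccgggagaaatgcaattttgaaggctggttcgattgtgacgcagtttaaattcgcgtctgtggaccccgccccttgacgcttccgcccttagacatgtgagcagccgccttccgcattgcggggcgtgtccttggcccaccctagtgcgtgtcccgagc
Mrps6 held none of the 3 words in its window. Mrps21 held 1 ETS family word, and Mrps16 held 2 in the 300-base window, 1 of them in the stretch shown. Mrps18b held 3 matches, 2 for NRF1 and 1 for the ETS family, of which 1 lies in the stretch shown.

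Over the family, 67 of the 76 genes had a start region in the RefSeq table. The ETS family word was found in 25 of them, 37.3%, against 9.93% of all 27025 genes with such a window and 17.3% of those measured on these arrays. The NRF1 word was found in 8 genes, 11.9%, against 3.05% of all genes and 5.24% of those measured. The YY1 word was found in 8 genes, 11.9%, against 1.64% of all genes and 3.04% of those measured, and 32 genes held none of the 3 words. The diet differences were set beside these matches without a test. The median was -0.08 in the 25 genes with the ETS family word and -0.07 in the 42 without it, -0.07 with the NRF1 word and -0.08 in the 59 without it, and 0.01 with the YY1 word and -0.08 without it. A match is a description of letters and not a site.

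**Figure D2:**
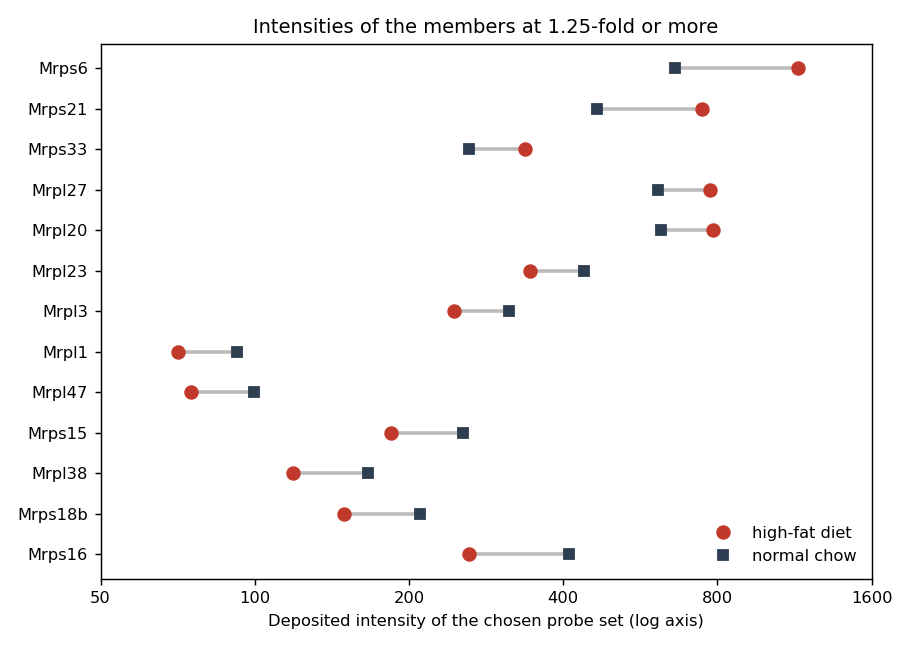
Deposited intensity on a log axis of the 13 genes that differed by 25% or more, in the probe set that represents each gene. Circles are the high-fat diet array and squares the chow array, with 1 array per diet. Within a row the 5 genes at the top are higher and the 8 below lower on the high-fat diet, and intensities of different genes cannot be compared. Mrpl27 and Mrpl47 turn to the other direction with the mean of their probe sets.

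Large-subunit proteins with a bacterial counterpart had a median difference of -0.12 over 29 genes, with 19 lower and 10 higher on the high-fat diet. The share of lower genes was 65.5%, against 52.9% of all measured genes. The proteins of this group include neighbours of the catalytic centre and proteins of the tunnel exit and of the stalks. Mrpl47, whose bacterial relative sits near the tunnel exit, had 75 on the high-fat diet and 99.8 on chow, a difference of -0.41. Its other measured probe set reached the floor on the high-fat diet array alone and was higher there by at least 0.47, so the direction for Mrpl47 was not settled. Mrpl1, the protein of the L1 stalk, had 70.9 on the high-fat diet and 92.2 on chow, a difference of -0.38, and -0.34 in its other measured probe set.

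Mrpl3, which reaches towards the catalytic centre in bacterial ribosomes, had 244.5 on the high-fat diet and 313.3 on chow. Its difference was -0.36, with -0.45 and -0.08 in its other measured probe sets. Mrpl23, a protein of the tunnel exit, had 345.3 on the high-fat diet and 438.5 on chow, a difference of -0.34 in its only probe set. Mrpl19 had 89.3 on the high-fat diet and 111.5 on chow, a difference of -0.32, and its other measured probe sets differed by -0.35 and -0.43. Mrpl1, Mrpl3 and Mrpl19 were thus lower in all of their 2 or 3 measured probe sets, and these 3 genes and Mrpl23 kept this direction under all alternatives. The proteins at the base and tip of the factor-binding stalk differed by less. Mrpl10 had 468.7 on the high-fat diet and 468.1 on chow, and Mrpl12, which also binds the mitochondrial RNA polymerase, had 225.6 on the high-fat diet and 264.8 on chow, a difference of -0.23.

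On the higher side of this group, Mrpl27, a neighbour of the catalytic centre in bacterial ribosomes, had 773.9 on the high-fat diet and 612.7 on chow, a difference of 0.34. Its other probe set, at 36.5 on the high-fat diet and 56.9 on chow, differed by -0.64. Mrpl20, whose bacterial relative acts early in assembly of the large subunit, had 783.4 on the high-fat diet and 621.6 on chow, a difference of 0.33 in its only probe set. Mrpl32, which the m-AAA protease trims before it joins the ribosome, had 318.0 on the high-fat diet and 281.2 on chow, a difference of 0.18. Mrpl18 and Mrpl33 differed by 0.07 and 0.04 and turned below 0 when centred on reference genes.

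Mitochondrion-specific large-subunit proteins differed little, with 19 of 20 genes within 25%. Their median was -0.08, with 13 genes lower and 7 higher on the high-fat diet, 65% lower against 52.9% of all measured genes. Mrpl38, a protein of the central protuberance at the top of the subunit, had 118.9 on the high-fat diet and 166.2 on chow, a difference of -0.48, but its other measured probe set differed by -0.03. Mrpl40, Mrpl46 and Mrpl48, further proteins of the protuberance, differed by -0.13, -0.23 and -0.12, the last with 0.16 and -0.49 in its other probe sets. Mrpl58, a peptidyl-tRNA hydrolase built into the subunit, had 246.1 on the high-fat diet and 298.7 on chow, a difference of -0.28, and -0.25 in its other probe set. Mrpl39, a relative of threonyl-tRNA synthetase, differed by -0.25 and -0.28 in its probe sets.

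The higher genes of this group were led by Mrpl42, with 586.8 on the high-fat diet and 499.0 on chow, a difference of 0.23. Mrpl50 and Mrpl57 were higher by 0.18 each, and the other probe sets of these genes differed by 0.18 and 0.17. Mrpl54 was higher by 0.16. Mrpl45, which ties the mitoribosome to the inner membrane, differed by 0.09, and by -0.04 when centred on reference genes.

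Small-subunit proteins with a bacterial counterpart held the extremes of the family, Mrps6, Mrps21 and Mrps16. Their 16 genes had a median of -0.01, which turned above 0 under quantile normalization, lowess centring, median centring and with 2 of the other choices of probe set, and an SD of 0.37. Of these genes 8 were lower and 8 higher on the high-fat diet, 50% lower against 52.9% of all measured genes. Mrps15, a protein that binds rRNA early in assembly of the bacterial subunit, had 184.2 on the high-fat diet and 255.5 on chow, a difference of -0.47. Its other probe sets differed by -0.32 and 0.39. Mrps10 had 116.7 on the high-fat diet and 141.5 on chow, a difference of -0.28 in its only measured probe set.

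Mrps9 differed by -0.24 in the probe set that represents it and by 0.20, 0.51 and -0.55 in the others, so no direction could be given. Mrps2 differed by -0.18, and by 0.12 in its other probe set. Mrps14 had 674.9 on the high-fat diet and 575.6 on chow, a difference of 0.23, and 0.10 in its other measured probe set. Mrps24, at the entry of the mRNA channel, differed by 0.16 and -0.10 in its probe sets. Mrps28 differed by 0.11, and by -0.01 when centred on reference genes.

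Mitochondrion-specific small-subunit proteins had a median of -0.09. It was -0.01 with the mean of all probe sets and also with the probe set of smallest difference. On the high-fat diet 7 of 10 genes were lower and 3 higher, 70% lower against 52.9% of all measured genes. After Mrps18b, the lower genes were Mrps27, an RNA-binding protein of the pentatricopeptide repeat family, at -0.20, Mrps31 at -0.17, Mrps34 at -0.15 and Mrps26 at -0.10. The other measured probe set of Mrps31 differed by 0.15. Mrps33 had 337.5 on the high-fat diet and 261.5 on chow, a difference of 0.37 in its only probe set. Mrps22 was higher by 0.21 in its only probe set. Mrps25 differed by 0.11, with 0.32 and -0.36 in its other probe sets, and by -0.01 when centred on reference genes. Mrps36, named as a ribosomal protein but known as a part of the 2-oxoglutarate dehydrogenase complex, differed by 0.14 and was left out of the 4 role groups. No test could compare the groups with each other.

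Probe sets of one gene often disagreed. Of the 35 genes with at least 2 probe sets that passed the floor on both arrays, 15 had all of them in one direction, 42.9%, beside 48.6% of the 5196 genes of this kind on the arrays. Of these 15 genes 8 were lower (Mrpl1, Mrpl3, Mrpl19, Mrpl38, Mrpl39, Mrpl51, Mrpl52 and Mrpl58) and 7 higher on the high-fat diet (Mrps6, Mrps14, Mrpl28, Mrpl33, Mrpl34, Mrpl50 and Mrpl57), where the brightest probe sets of Mrpl28, Mrpl33 and Mrpl34 differed by 0.02, 0.04 and 0.02 and lay below 0 when centred on reference genes. The widest range was that of Mrps5, at 0.03 in its brightest probe set. It read 49.5 on the high-fat diet and 108.3 on chow in another, a difference of -1.13. The 6 probe sets of Mrpl15 above the floor ranged from -0.25 to 0.77. Mrpl49 differed by -0.08 and 0.61, and Mrpl17 by -0.12, 0.24 and 0.62. Mrpl21 differed by -0.22 in its brightest probe set and by 0.28 and 0.58 in the others, and Mrpl35 by -0.12 and 0.46. Smaller or mixed values were found for Mrpl11, at -0.18 with 0.20 and 0.10, for Mrpl13, at -0.16 with -0.15 and 0.52, and for Mrpl44, at -0.06 with -0.28, 0.32 and 0.25. Mrpl41 differed by -0.10 and 0.23, and Mrps23 by -0.08 with 0.26 and -0.00. Mrpl9 was near 0 in its brightest probe set, at -0.01, and differed by -0.15 and 0.13 in the others. Of all these genes no direction can be given from the arrays.

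The brighter and the dimmer probe sets of the family also leaned in different directions. The 76 probe sets that represent a gene had a median difference of -0.08, and the 60 other measured probe sets 0.10, with 26 of them lower and 34 higher on the high-fat diet. Over all genes, the 10174 other measured probe sets had a median of -0.02. The median of the mean intensity was 73.3 for the family's other probe sets and 270.2 for those that represent a gene. In Mrpl11, Mrpl13, Mrpl17, Mrpl21, Mrpl35, Mrpl41, Mrpl44, Mrpl47, Mrpl49 and Mrps23 the mean over all probe sets was above 0, whereas the brightest probe set was below 0. With that mean the medians of both large-subunit groups were also at 0 or just above it, at 0.00 and 0.01.

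**Figure D3:**
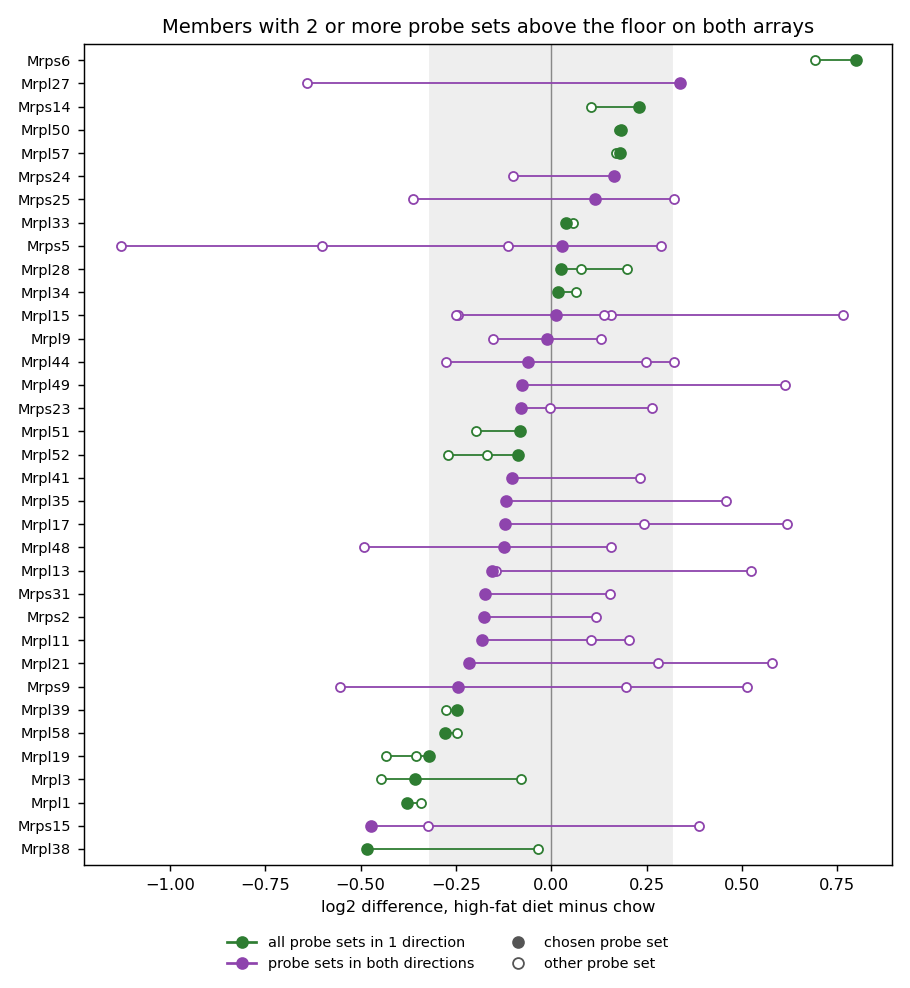
Log2 difference, high-fat diet minus chow, of every probe set that passed the floor on both arrays, for the 35 genes with at least 2 of them. Filled points represent the gene, open points are its other probe sets, green marks genes with all probe sets in one direction, purple the others, and the grey band is the pooled SD of 0.32. Of the 35 genes, 20 have probe sets on both sides of 0. Mrps6 is the only gene with all its points right of the band, and Mrpl1 and Mrpl19 have all theirs left of it.

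Probe sets that list a second gene beside a mitochondrial ribosomal protein gene were not members. There were 4 of them. One that lists Mrpl30 with Gm6238 had 689.6 on the high-fat diet and 399.7 on chow, a difference of 0.79, while the other for this pair differed by 0.04. The probe set that lists Mrpl53 with Ccdc142 differed by 0.25. Mrpl30 and Mrpl53 had no probe set of their own.

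Other genes of mitochondrial protein synthesis were described with lists of their own. Mitoribosome subunits with other names differed by 0.04 for Dap3, 0.05 for Ptcd3 and 0.10 for Chchd1, values that turned below 0 when centred on reference genes, whereas Gadd45gip1 had 78.3 on the high-fat diet and 104.2 on chow, a difference of -0.41. Assembly factors and rRNA enzymes had a median of -0.04, with 15 of 26 genes lower and 11 higher on the high-fat diet. Their share of lower genes was 57.7%, near the 52.9% of all measured genes. Mettl17, a factor of small-subunit assembly, had 85.8 on the high-fat diet and 147.3 on chow, and its 3 probe sets were all lower, at -0.78, -0.43 and -0.41. Mterf4, which brings the rRNA methyltransferase Nsun4 to the ribosome, differed by -0.51 in its only measured probe set (-0.09 with a higher floor, at the 60th percentile), and Ngrn, an assembly factor, differed by -0.47. Rpusd4, a pseudouridine synthase of the large-subunit rRNA, passed the floor on the high-fat diet array alone, at 55.8 on the high-fat diet and 10.1 on chow, which is at least 1.95-fold higher. Its relative Rpusd3 had 63.9 on the high-fat diet and 38.1 on chow, a difference of 0.75 that was 0.09 with the higher floor, and Mpv17l2, a membrane protein linked to ribosome assembly, differed by 0.41.

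Of 11 measured translation factors 10 were lower and 1 higher on the high-fat diet, where 52.9% of all measured genes were lower. Their median was -0.16, and 10 of 11 lay within 25%. Among the lower ones Mrrf, Mtif2 and Mtif3 differed by less than 0.1, at -0.08, -0.09 and -0.05, and 2 passed the floor on the chow array alone. These were Guf1, a translational GTPase, with 22.3 on the high-fat diet and 33.3 on chow, and Mtrf1l, a release factor, with 19.3 on the high-fat diet and 32.1 on chow. Gfm1, the elongation factor that moves the ribosome along the mRNA, had 178.1 on the high-fat diet and 219.0 on chow, a difference of -0.30 and of -0.44 in its other probe set. Gfm2, which recycles ribosomes, had 100.4 on the high-fat diet and 132.8 on chow, with differences of -0.40 and -0.39. Mtfmt, which formylates the initiator tRNA, was higher by 0.21. Aminoacyl-tRNA synthetases and the related amidotransferase subunits had a median of -0.12, and of 0.03 with the mean of all probe sets. Of these 17 genes 10 were lower and 7 higher, 58.8% lower and so near the 52.9% of all measured genes. Qrsl1, a subunit of the amidotransferase, had 34.6 on the high-fat diet and 58.0 on chow, and Vars2 was above the floor only on chow, at least 1.54-fold lower. Tars2 differed by -0.57 and 0.39 in its probe sets. Gatc, Nars2 and Ears2 were higher by 0.29, 0.23 and 0.19.

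Genes of mitochondrial transcription, RNA handling and their regulators had a median of -0.17, and of -0.07 with the probe set of smallest difference. On the high-fat diet 17 of 22 were lower and 5 higher, 77.3% lower against 52.9% of all measured genes. Ppargc1b, a coactivator of mitochondrial genes, had 112.7 on the high-fat diet and 225.0 on chow, a difference of -0.997 in its only measured probe set. Prorp, the nuclease subunit of mitochondrial RNase P, was above the floor only on chow, at 8.5 on the high-fat diet and 58.4 on chow, at least 2.09-fold lower. Myc, a transcription factor that acts on ribosome genes, had 30.4 on the high-fat diet and 48.9 on chow. Mtpap, the mitochondrial poly(A) polymerase, was higher by 0.43 and Tefm, a transcription elongation factor, by 0.27, while Supv3l1, an RNA helicase, differed by 0.13 and -0.20 in its probe sets.

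Genes of mitochondrial import had a median of 0.08, but of -0.05 when centred on reference genes. On the high-fat diet 8 of 21 were lower and 13 higher, 38.1% lower against 52.9% of all measured genes. Timm17b and Timm17a, alternative subunits of the inner-membrane translocase, differed by -0.42 and 0.26. The chaperone Hspa9 differed by -0.26, with 0.13 among its other probe sets, and Timm44 by -0.12, while Timm8a1 and Tomm70a were higher by 0.19 and 0.18. Markers of mitochondrial mass had a median of -0.04, and a median above 0 with 2 of the other choices of probe set. Of these markers 7 of 12 were lower and 5 higher, 58.3% lower and so near the 52.9% of all measured genes. Among these Phb2, a prohibitin, differed by -0.43 (0.01 in another probe set), Mfn1 by -0.26 and Mfn2 by -0.14, and Cycs, the gene of cytochrome c, by 0.50 with -0.53 in another probe set. Etfa was higher by 0.32 and Vdac1, an outer-membrane channel, by 0.21. The mitochondrial ribosomal protein genes, with a median of -0.08, lay between the regulators and the import genes. For comparison, the median was -0.06 over 47 genes with cytosolic ribosomal protein symbols and -0.01 over 84 with respiratory chain symbols. These symbol patterns were chosen after the values were seen. They matched only the start of a symbol, so other genes could be included. Of the genes encoded in the mitochondrial genome, ND5 had a probe set, at 6408.9 on the high-fat diet and 5615.3 on chow.

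**Figure D4:**
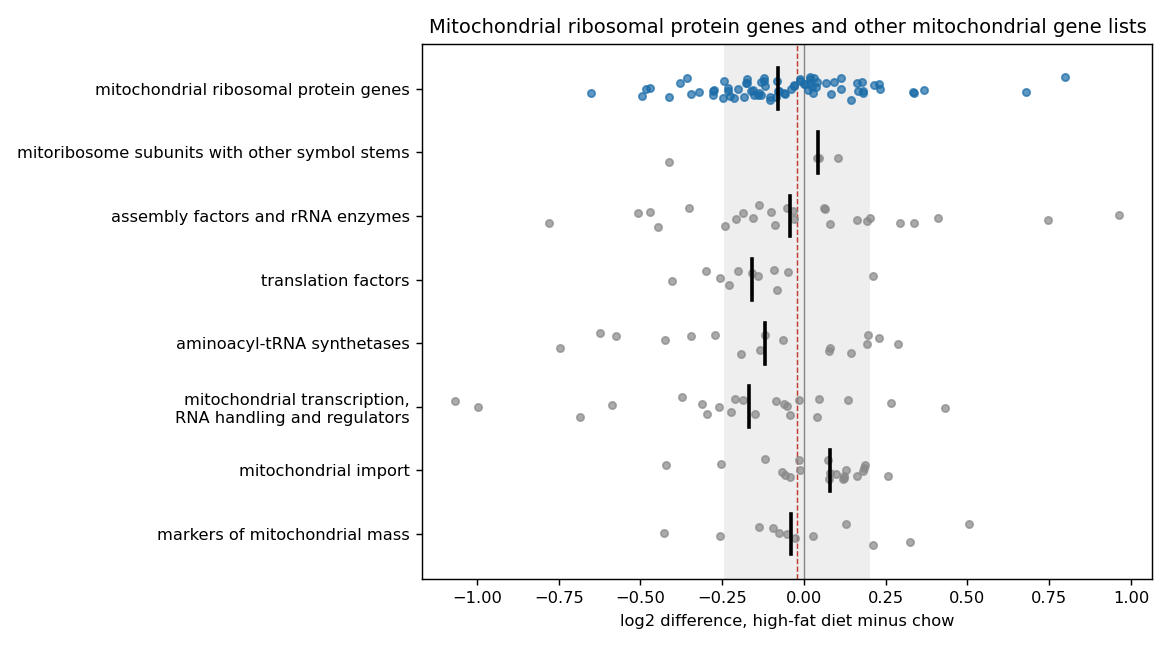
Log2 difference, high-fat diet minus chow, of each measured gene in 8 lists, 1 point per gene, with the median as a black bar. The grey band is the interquartile range of all 14066 measured genes, from -0.24 to 0.20, and the dashed line their median of -0.02. The medians run from -0.17 for transcription, RNA handling and regulators to 0.08 for import, which is -0.05 when centred on reference genes. With the probe set of smallest difference the median of the regulators is -0.07 and that of the translation factors, at -0.16, is the lowest of the lists.

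Markers of other cells were set beside these values. Mesothelial markers had a summed intensity of 756.1 on the high-fat diet and 1180.5 on chow, with 4 of 5 lower. Macrophage markers summed to 7906.3 on the high-fat diet and 7667.5 on chow, with 3 of 8 lower, among them Cd14 at -0.64 and Mrc1 at -0.44. Endothelial markers summed to 1563.3 on the high-fat diet and 1428.4 on chow, with 1 of 5 lower. Fibroblast and progenitor markers summed to 9410.2 on the high-fat diet and 9272.8 on chow, with 2 of 5 lower, and spread from -0.66 for Pdgfra to 0.62 for Dpt and 0.74 for Col1a1. The sums are carried by the brightest probe sets. The 3 smooth muscle markers summed to 2124.0 on the high-fat diet and 1986.3 on chow, with 2 of 3 lower. Acta2, the brightest of them, differed by 0.34, Tagln by -0.95 and Myh11 by -1.07. Brown fat, rich in mitochondria, is marked by Ucp1, which stayed under the floor with 4.5 on the high-fat diet and 4.2 on chow, while the 4 other brown fat markers summed to 317.3 on the high-fat diet and 264.1 on chow, with 2 lower and 2 higher. Of 5 epididymis markers, 2 were measured, with sums of 71.3 on the high-fat diet and 69.0 on chow. The part of cell makeup in the differences above was not tested.

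**Figure D5:**
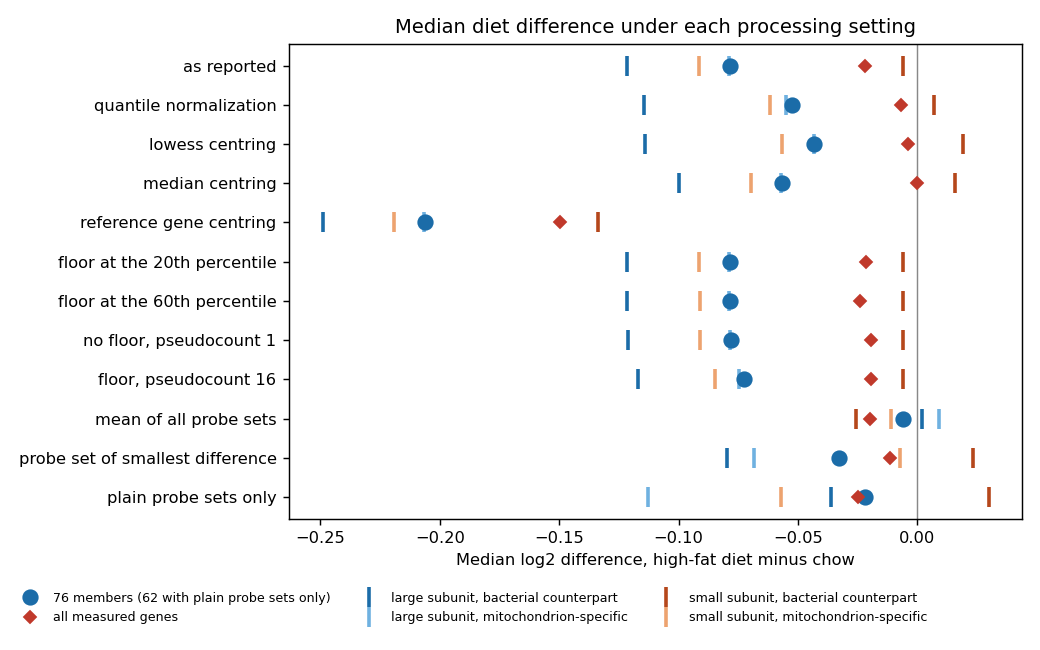
Median log2 difference, high-fat diet minus chow, under the reported setting and 11 alternatives, for the family (circles), its 4 role groups (ticks) and all measured genes (diamonds). The family's median is below 0 in every setting, from -0.21 with reference gene centring to -0.01 with the mean of all probe sets, where the median of all genes is -0.02. The small-subunit group with bacterial counterparts crosses 0 between settings.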

How the data were processed

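Intensity values were used as the authors deposited them, 1 linear value per probe set and array, with no detection calls. Per the labels' protocols, biotin-labelled cRNA was made from 10 µg of total RNA for an Affymetrix array. For the summary algorithm and the scaling, these sources give no statement. Symbols came from the platform annotation of 2016: 34945 probe sets had 1 symbol, 932 several and 9160 none here. All 76 genes matched RefSeq by gene ID. Medians of log2 intensity differed by -0.03 between the arrays, under a limit of 0.1, so no centring was applied. Values under the floor were raised to it before log2 was taken, and a gene above the floor on 1 array is given as a bound. With 1 array per diet no test was made, and the number of arrays limits precision. Processing used Python 3.11.15 with pandas 2.3.3 and statsmodels 0.14.6, and was tested on simulated data.

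The members and lists were chosen with earlier results of these data known. Named by rule were the 5 largest differences in each direction per role group, genes past 1.5-fold, genes above the floor on 1 array, genes with discordant probe sets, and the 3 largest differences in each direction per further list; others were named after their values were seen. In all, 11 alternatives were tried.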

Additional observations from a re-analysis of the deposited data

How the results depend on the processing

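Scaling, floor and probe set choices changed 10 of 55 summary values. The median difference of the 76 genes, -0.08 as reported, was -0.21 with reference gene centring, -0.0058 with the mean of all probe sets, -0.0329 with the probe set of smallest difference and -0.0219 with plain probe sets only (62 genes). Higher genes, 29 as reported, were 14 with reference gene centring. Genes higher by 25% or more, 5 as reported, were 3 with quantile normalization, 3 with lowess centring and 2 with reference gene centring (3.95%, 3.95% and 2.63%, against 17.1%, 17.3% and 9.74% of all genes). Genes lower by 25% or more, 8 as reported, were 19 with reference gene centring (25%, against 29.3% of all genes) and 5 with the mean of all probe sets (6.58%, against 16.9%). Floors at the 20th and 60th percentile and pseudocounts of 1 and 16 moved no summary value by more than these limits (1.5 times for counts, the pooled SD over the square root of the number of genes for medians), but the 60th percentile brought Rpusd3 to 0.0861 and Mterf4 to -0.0857. Of the 13 genes past 25%, 11 had one direction under all alternatives that kept them. Mrpl27 differed by -0.15 and Mrpl47 by 0.0268 with the mean of all probe sets, and Tars2 by 0.39 and Phb2 by 0.0092 with the probe set of smallest difference. The causes were not tested beyond the choice of probe set or scale itself. No paired analysis was possible because each diet has 1 array, and for the same reason no sample could be left out. The floor limits what dim probe sets can show.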
